A study of Homo sapiens with 4 samples.

Results

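The replication-dependent histone genes of 6p22 are the protein-coding genes on chromosome 6 between 25.9 and 28.0 Mb (hg38) whose symbols begin with H1-, H2AC, H2BC, H3C or H4C. The rule found 53 genes among 20056 protein-coding genes. They lay in 9 bins of 50 kb, and 14 of 89239 listed bin pairs had both ends in these bins: 9 of the 48992 pairs that count contacts within a single bin, and 5 pairs of adjoining bins. None of the 53 genes spanned a bin boundary. The rule used symbols and positions and no contact value.

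Histones are the proteins around which DNA is wound in nucleosomes. H2A, H2B, H3 and H4 form the nucleosome core, and H1 binds the linker DNA between cores. As a rule, the replication-dependent genes are transcribed in S phase and lack introns. Their mRNAs typically end in a stem-loop bound by SLBP instead of a poly(A) tail. In many cycling cells these loci are found at histone locus bodies, nuclear bodies organised by NPAT, a coactivator of histone gene transcription.

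Contacts were measured by Micro-C, in which chromatin is cut with micrococcal nuclease and nearby fragments are ligated, in the neuroblastoma cell line SH-SY5Y. The comparison asked which contacts differed after depletion of TDP-43, a nucleic acid-binding protein. There were 2 libraries from TDP-43 shRNA knockdown cells and 2 labelled control, for which the protocol names the shRNA construct shNC. Both constructs used a lentiviral vector with a U6 promoter. The knockdown cells went through 2 weeks of puromycin selection (2 µg/mL) and then grew in 1 µg/mL puromycin. Whether the control cells were treated with puromycin is not stated. The labels do not say whether the lines were clones, and a contact map holds no RNA level with which the knockdown could be checked. Separate cultures are not stated for the libraries, and a p-value here covers the spread among these 4 libraries, which may be technical. The listed pairs held 115168160 and 142424414 contacts in the knockdown libraries and 158400914 and 163147992 in the control libraries. Levels below are counts per 1e6 listed contacts (CPM) with TMM-scaled library sizes, differences are log2 ratios of knockdown over control, and "lower" or "higher" without a value means an adjusted p under 0.05 over all 89239 pairs (edgeR's quasi-likelihood test, Benjamini-Hochberg). Errors rest on 2 libraries per group throughout. The test also shares the spread across all pairs, so an error depends only in part on the libraries of its own pair.

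The 53 genes formed 3 subclusters separated by gaps of 847 and 660 kb. The first, from 26017032 to 26285534, held 32 genes in 6 bins, with 5 H1, 4 H2A, 8 H2B, 7 H3 and 8 H4 genes. The second, from 27132316 to 27147562, held 5 genes in 1 bin, of which 2 were H2A, 2 were H2B and 1 was H4. The third, from 27807479 to 27893891, held 16 genes in 2 bins, with 1 H1, 5 H2A, 4 H2B, 3 H3 and 3 H4 genes. A single 50 kb bin held up to 9 histone genes, so a contact value belongs to a bin and is shared by all its genes.

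**Figure D1:**
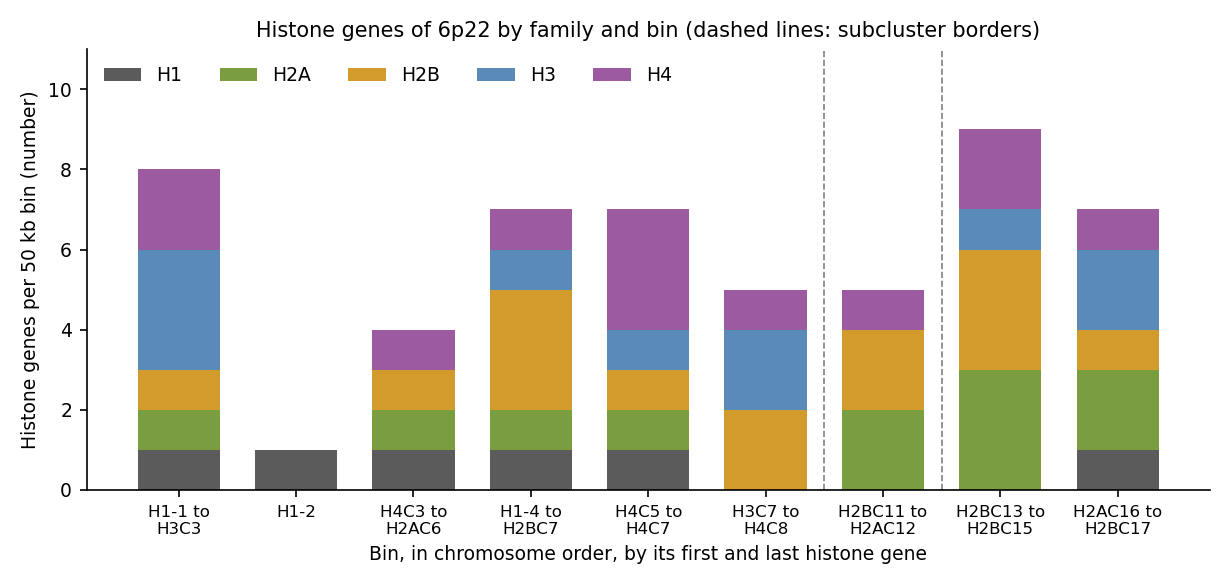
Number of histone genes (vertical axis) in each of the 9 bins, in order along 6p22, with colours for the 5 families and dashed lines between the 3 subclusters. The bin with 9 genes held H2A, H2B, H3 and H4 genes and no H1 gene, and 1 bin held H1-2 alone.

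Promoters of 4 genes are shown because they lie in the bin 26200001 to 26250000, the one histone bin whose contacts were lower in the knockdown under both scalings described below, and because they stand for 4 of the 5 families. The windows are RefSeq's (GRCh38.p14), from 250 bases before to 50 bases after a gene start, written 5′ to 3′ along the gene. H1-3 is at chr6:26234938-26235237 on the minus strand, H2BC8 at chr6:26216639-26216938 on the minus strand, H3C6 at chr6:26224885-26225184 on the plus strand (the downstream one of its 2 listed starts), and H4C6 at chr6:26240143-26240442 on the plus strand. Capitals mark matches, on either strand, to CCAAT, to the TATA box letters TATAAA and to TTTGCAT (the core of the octamer bound by POU2F1).
H1-3: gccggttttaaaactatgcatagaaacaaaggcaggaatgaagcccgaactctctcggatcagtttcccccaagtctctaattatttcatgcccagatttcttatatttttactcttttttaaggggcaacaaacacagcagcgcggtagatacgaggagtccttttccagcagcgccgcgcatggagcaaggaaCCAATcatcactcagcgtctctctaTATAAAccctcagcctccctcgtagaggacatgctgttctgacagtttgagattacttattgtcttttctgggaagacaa
H2BC8: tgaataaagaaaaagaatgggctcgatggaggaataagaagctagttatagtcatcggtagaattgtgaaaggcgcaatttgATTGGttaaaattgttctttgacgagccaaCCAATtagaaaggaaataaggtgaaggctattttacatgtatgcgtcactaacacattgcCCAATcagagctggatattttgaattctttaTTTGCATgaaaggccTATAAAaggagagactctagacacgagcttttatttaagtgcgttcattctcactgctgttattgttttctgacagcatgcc
H3C6: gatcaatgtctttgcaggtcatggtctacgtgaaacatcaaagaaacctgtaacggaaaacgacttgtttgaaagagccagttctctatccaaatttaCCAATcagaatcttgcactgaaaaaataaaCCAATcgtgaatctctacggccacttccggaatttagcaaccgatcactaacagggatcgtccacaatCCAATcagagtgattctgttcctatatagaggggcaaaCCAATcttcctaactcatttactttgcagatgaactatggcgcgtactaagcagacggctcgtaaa
H4C6: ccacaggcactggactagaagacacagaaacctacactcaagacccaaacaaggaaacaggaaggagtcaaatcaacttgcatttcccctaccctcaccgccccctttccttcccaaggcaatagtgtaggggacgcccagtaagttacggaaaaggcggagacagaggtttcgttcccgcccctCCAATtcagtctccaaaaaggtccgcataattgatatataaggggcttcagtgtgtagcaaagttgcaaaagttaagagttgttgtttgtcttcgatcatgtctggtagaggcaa

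Promoter windows were found for 48 of the 53 genes. CCAAT was in a window of 41 of the 48 genes (85.4%), against 34.6% of all 35116 RefSeq promoters in the table, and it was present in 6 of 6 H1, 10 of 10 H2A, 14 of 14 H2B, 8 of 8 H3 and 3 of 10 H4 genes. TATAAA was in 32 genes (66.7%), against 11.5% of all promoters. TTTGCAT was in 20 genes (41.7%), against 4.46% of all promoters, and its family pattern differed most: 11 of 14 H2B and 8 of 10 H2A genes held it, 1 of 8 H3 genes did, and it was not found in the 6 H1 or 10 H4 genes. Many H2A and H2B genes lie head to head and share a window, so one match can count for both. H2BC8 had TTTGCAT 47 bases before its start on its own strand, and the same letters stood 192 bases before the start of H2AC8, its divergent neighbour, on the opposite strand. The H3 match, in a window of H3C4, lay in sequence shared with H2AC7. TATAAA can overlap its own reverse complement. A match describes letters in the window and no more.

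Contacts within the histone bins were high for the region. The 9 histone bins ranged from 16.2 to 35.1 CPM with a median of 22.8 in the knockdown libraries, and from 16.4 to 42.9 CPM with a median of 24.01 in the control libraries (group means). The 28 other listed bins of the 25.9 to 28.0 Mb window had medians of 8.45 CPM in the knockdown and 8.56 CPM in the control libraries. Of all 37 listed bins of the window, the histone bins took ranks 1 to 6 by control level, and the other 3 took ranks 8, 11 and 13. Most histone bins thus stood at the upper end of the contact levels of the region.

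After TDP-43 knockdown, contacts within 3 of the 9 histone bins were lower and none was higher. The 3 bins hold 23 of the 53 genes: H1-3 and H1-5 of the linker histones, 6 H2A, 5 H2B, 4 H3 and 6 H4 genes. Of all 48992 within-bin pairs, 14.3% were lower and 7.4% higher. The groups did not overlap in 4 of the 9 histone bins, all lower in the knockdown, against 28.5% of all within-bin contacts and 43.3% of the 7894 within the contact range of the histone bins. In that range 18.4% of the bins passed the test as lower. The median difference of the 9 bins was -0.11, beside -0.04 in bins of the same contact range and 0.02 over all contacts within a bin. With the trend of the difference with contact level removed, as described below, it was -0.03, beside 0.03 in both of those classes. In bulk libraries, fewer cells with a contact and fewer contacts per cell cannot be told apart.

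The bin that passed the test in most settings was 26200001 to 26250000 of the first subcluster, with H4C5, H2BC8, H2AC8, H3C6, H1-3, H4C6 and H4C7. Its level was 27.2 and 27.2 CPM in the knockdown libraries, from 3297 and 4045 contacts, against 34.5 and 32.6 CPM in the control libraries, from 5271 and 5022 contacts. Both knockdown libraries were below both control libraries by several times the spread within either group. The log2 difference was -0.30 (SE 0.06, adjusted p = 3.52e-05, edgeR).

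The bin 27850001 to 27900000 at the end of the third subcluster holds H2AC16, H1-5, H3C11, H4C13, H3C12, H2AC17 and H2BC17. By group mean it had the highest contact level of the 9 in both groups, at 35.9 and 34.2 CPM in the knockdown libraries and 43.5 and 42.3 CPM in the control libraries. The groups did not overlap, and the log2 difference was -0.29 (SE 0.06, adjusted p = 1.84e-05, edgeR).

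The neighbouring bin 27800001 to 27850000 holds the other 9 genes of that subcluster, H2BC13, H2AC13, H3C10, H2AC14, H2BC14, H4C11, H4C12, H2AC15 and H2BC15. Its level was 23.2 and 22.9 CPM in the knockdown libraries against 26.5 and 26.2 CPM in the control libraries. Here too the groups did not overlap, with a log2 difference of -0.19 (SE 0.06, adjusted p = 0.0235, edgeR). Without knockdown replicate 1 or knockdown replicate 2 the difference was about as large, at -0.20 and -0.18, but the test no longer passed (adjusted p = 0.213 and 0.246). By library size alone the difference was -0.06 (adjusted p = 0.505). By TMM, all 16 genes of the third subcluster lay in 2 bins with lower contacts, and 7 of the 32 genes of the first lay in such a bin. Of all within-bin pairs 14.3% were lower. With the trend removed neither bin of the third subcluster passed the test (adjusted p = 0.199 and 0.0532, edgeR).

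The 6 other bins did not pass the test. In the bin 26150001 to 26200000, with H1-4, H2BC5, H2BC6, H4C4, H3C4, H2AC7 and H2BC7, the level was 36.0 and 33.03 CPM in the knockdown libraries and 37.3 and 37.3 CPM in the control libraries. The groups did not overlap, but the knockdown libraries differed from each other by more than the nearer one differed from the controls (log2 difference -0.11, SE 0.06, adjusted p = 0.173, edgeR). The first bin of the locus, 26000001 to 26050000, holds H1-1, H3C1, H4C1, H4C2, H3C2, H2AC4, H2BC3 and H3C3. It had 23.6 and 21.96 CPM in the knockdown libraries and 23.2 and 24.9 CPM in the control libraries, with overlapping groups and a log2 difference of -0.08 (adjusted p = 0.458, edgeR).

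H1-2 was the only histone gene in the bin 26050001 to 26100000, which it shares with HFE, a regulator of iron uptake. That bin had 19.8 and 18.2 CPM in the knockdown libraries and 20.6 and 19.2 CPM in the control libraries (log2 difference -0.07, adjusted p = 0.562, edgeR). The bin 26100001 to 26150000, with H4C3, H1-6 (a linker histone of the testis), H2BC4 and H2AC6, was the only one of the 9 with a difference above 0. It had 17.2 and 16.8 CPM in the knockdown libraries and 15.7 and 17.2 CPM in the control libraries (log2 difference 0.05, adjusted p = 0.71, edgeR). In both bins the groups overlapped.

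The bin 26250001 to 26300000, with H3C7, H2BC9, H3C8, H2BC10 and H4C8, had 23.1 and 20.98 CPM in the knockdown libraries and 23.8 and 21.5 CPM in the control libraries (log2 difference -0.04, adjusted p = 0.738, edgeR). Each group spread over about as wide a range as the other, and they overlapped. The second subcluster, with H2BC11, H2AC11, H2BC12, H4C9 and H2AC12, lies whole in the bin 27100001 to 27150000. It had 15.1 and 17.3 CPM in the knockdown libraries and 16.1 and 19.7 CPM in the control libraries (log2 difference -0.14, adjusted p = 0.212, edgeR). Its result turned on single libraries: without control replicate 1 the difference was -0.29 (adjusted p = 0.0023, edgeR), and without control replicate 2 it was 0.01.

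**Figure D2:**
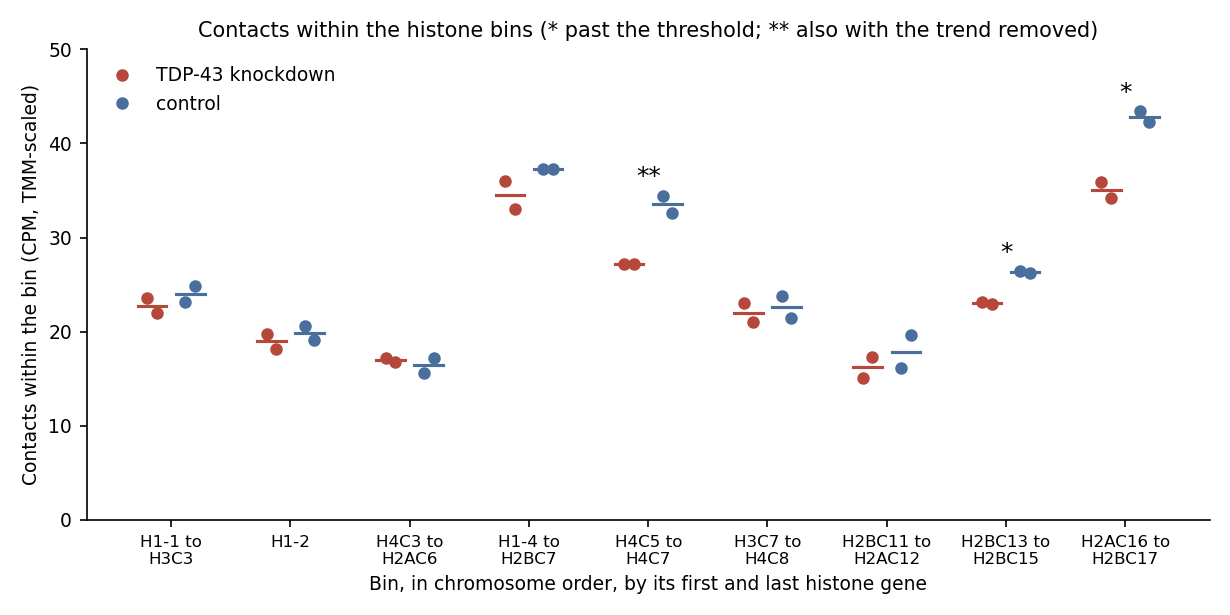
Contacts within each of the 9 histone bins in CPM (vertical axis, from 0), with 1 point per library, knockdown left of control, a line at each group's mean, and asterisks where the test passed (a pair of them where it also passed with the trend removed). The knockdown points lie below both control points in the bin from H4C5 to H4C7 and in both bins of the third subcluster, at 27.2 against 33.5 CPM, 23.04 against 26.3 CPM and 35.1 against 42.9 CPM on average.

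The size of the decrease depended on how the libraries were scaled. Across all pairs, the difference between groups varied with contact level, and a loess fit per library that removes this trend gave fold changes within 0.00311 (log2) of those in the authors' deposited table. With the trend removed, contacts within 1 of the 9 bins were lower and none higher, against 5.13% lower and 7.87% higher of all within-bin pairs. The bin that passed was 26200001 to 26250000, with a log2 difference of -0.20 (SE 0.06, adjusted p = 0.00987, edgeR). The bin 27850001 to 27900000 was then at -0.13 (adjusted p = 0.0532) and the bin 27800001 to 27850000 at -0.12 (adjusted p = 0.199). With the trend removed and 1 library left out, the call at 26200001 to 26250000 was lost without control replicate 1 (adjusted p = 0.0707), knockdown replicate 1 (adjusted p = 0.185) or knockdown replicate 2 (adjusted p = 0.17), at differences that stayed below 0. Over all 18 settings its difference ranged from -0.34 to -0.15, and it passed the test in 15. These settings are not separate checks. The settings without a filter and with a threshold of 0.01 reuse the values of the main fit, and the authors' table nearly repeats the loess fit.

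**Figure D3:**
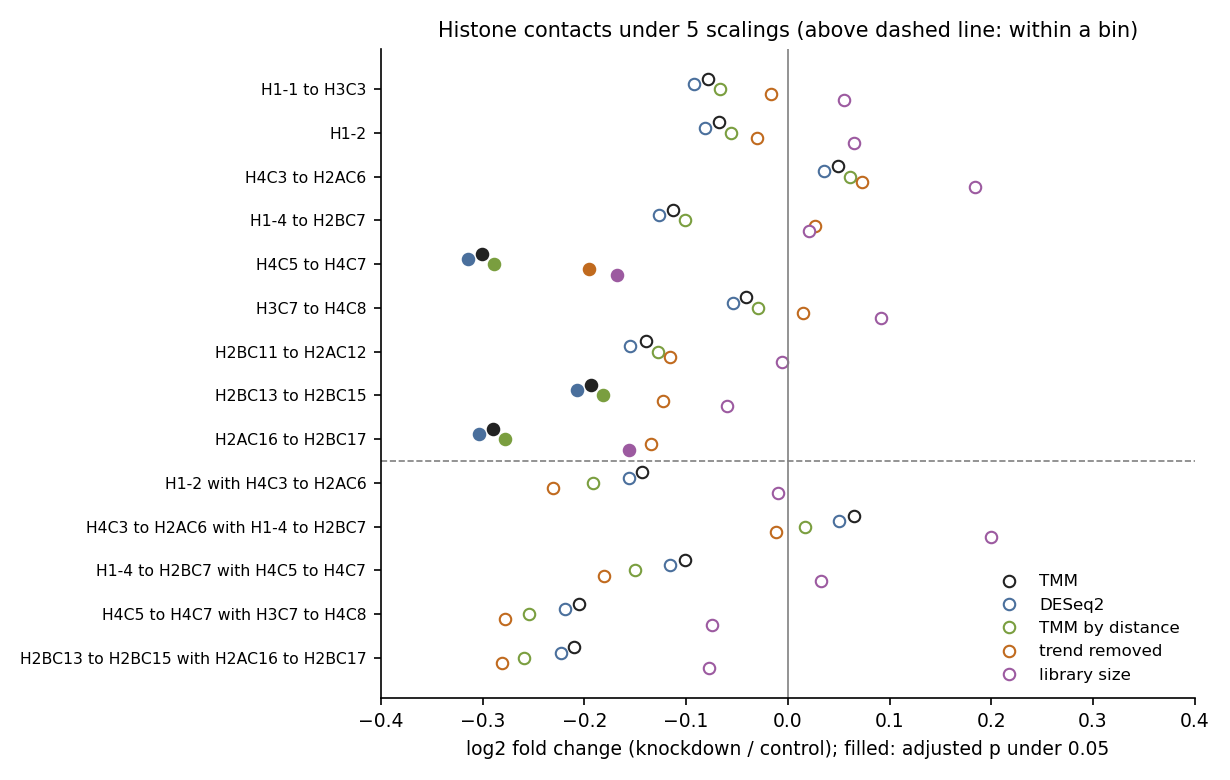
Log2 difference in contacts, knockdown over control (horizontal axis), of the 9 histone bins (above the dashed line) and the 5 adjoining pairs (below it), named by their first and last histone genes, under 5 scalings, with a filled point where the adjusted p was under 0.05. The bin from H4C5 to H4C7 (26200001 to 26250000) lies left of 0 and is filled under every scaling shown, and no adjoining pair is filled.

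Summed over the 9 bins, contacts came to 221 and 213 CPM in the knockdown libraries and 241.0 and 241 CPM in the control libraries. The knockdown libraries were below both controls, with a log2 ratio of -0.15, and the exact two-sided permutation test over the 4 libraries gave p = 0.333, the smallest that 2 against 2 allows. As a share of all contacts within a bin, the same sum was 0.0277% and 0.0265% in the knockdown libraries and 0.0274% and 0.0268% in the control libraries. As shares the groups overlapped, and with library size alone the log2 ratio was -0.018.

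Gene density moved with the calls. Among all bins with contacts listed, by TMM, those without a protein-coding gene were lower in 5.32%, those with 1 to 5 genes in 19.3% and those with 6 or more in 86.0%. Contact level rose along the same 3 classes, with median control levels of 3.815, 11.05 and 99.25 CPM. With the trend removed, 3.03%, 6.29% and 25.4% were lower and 7.56%, 8.05% and 9.65% higher. By TMM, of the 5 histone bins with 6 or more genes 3 were lower (60.0%), beside 95 of 109 other bins as dense (87.2%). Among the 10 other dense bins within the contact range of the histone bins, 6 were lower (60.0%). With the trend removed, 1 of the 5 histone bins (20.0%) and 4 of those 10 (40.0%) were lower. The part that gene density has in the histone result was not tested.

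Within the 25.9 to 28.0 Mb window, 2 of the 28 other bins were lower (7.14%) and 1 was higher (3.57%). By log2 difference, the bins 26200001 to 26250000, 27850001 to 27900000 and 27800001 to 27850000 took ranks 1, 2 and 6 of the 37 from the lowest, and ranks 4, 9 and 10 with the trend removed. One of the lower bins, 27150001 to 27200000, holds no protein-coding gene and adjoins the second subcluster (log2 difference -0.25, adjusted p = 0.0224, edgeR). The other, 27650001 to 27700000, also without a protein-coding gene, was at -0.22 (adjusted p = 0.0216, edgeR). With the trend removed they were at -0.25 (adjusted p = 0.0414) and -0.19 (adjusted p = 0.074). By that scaling 1 of the 28 other bins was lower (3.57%) and 2 were higher (7.14%).

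The bin that was higher by TMM, 26450001 to 26500000, lies beyond the end of the first subcluster and holds BTN3A3 and BTN2A1. Both are members of the butyrophilin family, which act in the recognition of phosphoantigens by gamma delta T cells. It had 16.9 and 17.9 CPM in the knockdown libraries and 13.2 and 14.3 CPM in the control libraries (log2 difference 0.34, SE 0.08, adjusted p = 0.000379, edgeR). Both knockdown libraries lay above both controls, the opposite of the histone bins that passed. It passed with the trend removed too (log2 difference 0.35, adjusted p = 0.000581). H2AC1 and H2BC1, histone genes just outside the window, lie in the bin 25700001 to 25750000, which had 7.55 and 6.63 CPM in the knockdown libraries and 6.24 and 6.55 CPM in the control libraries (log2 difference 0.15, not past the threshold).

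**Figure D4:**
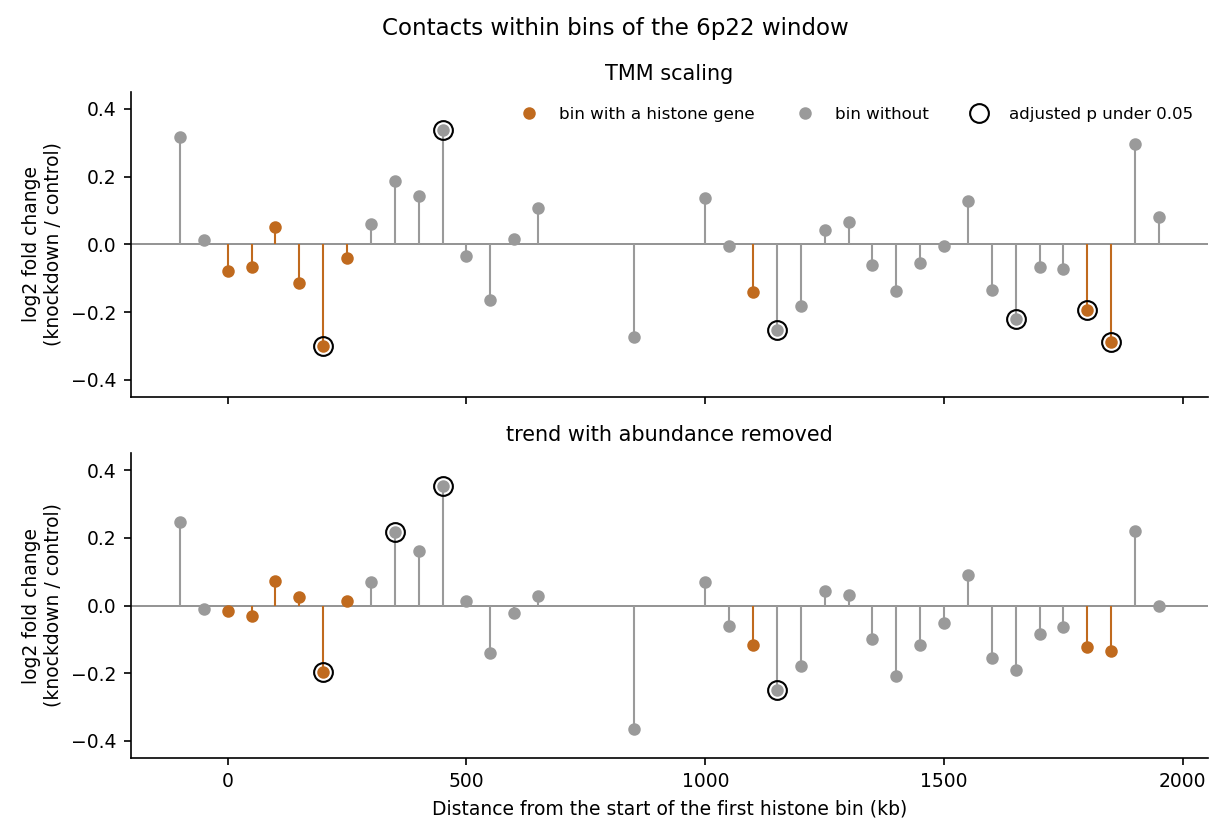
Log2 difference in contacts within a bin, knockdown over control (vertical axis), for the 37 listed bins of the window against distance from the start of the first histone bin in kb (horizontal axis), with TMM scaling above and the trend with contact level removed below. Histone bins are orange, other bins grey, and rings mark an adjusted p under 0.05. With TMM the lowest values, -0.30 and -0.29, belong to histone bins, and the highest, 0.34, to the bin with BTN3A3 and BTN2A1. With the trend removed the lowest value, -0.36, belongs to a bin without a histone gene. That bin had the lowest control level of the 37 (1.889 CPM) and did not pass the test (adjusted p = 0.325, edgeR).

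Contacts between histone bins could be followed only between neighbours. Of 6 possible adjoining pairs of histone bins 5 were listed, and none of the 10 more distant pairs within a subcluster was. None of the 20 possible pairs between subclusters, at 700 to 1850 kb, was in the list, nor any of the 6 pairs of a histone bin with an adjoining bin that holds no histone gene. The deposited list starts at a mean abundance of -0.01 on the log2 scale, so a pair below it has no value here, and contacts between subclusters were not analysed here. Across the genome 272 listed pairs on one chromosome were at 700 kb or more.

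Over all 14 pairs, 3 were lower and none higher, against 10.5% and 5.76% of all listed pairs, and the groups did not overlap in 5, all lower in the knockdown (26.3% of all listed pairs). None of the 5 adjoining pairs passed the test in either direction, against 11.4% of all pairs 50 kb apart, and none had an unadjusted p under 0.05. The pair joining the 2 bins of the third subcluster had 3.74 and 3.06 CPM in the knockdown libraries and 4.18 and 3.68 CPM in the control libraries (log2 difference -0.21, SE 0.16, adjusted p = 0.394, edgeR). The pair at 26200001 to 26300000 had 2.97 and 3.03 CPM in the knockdown libraries and 3.86 and 3.06 CPM in the control libraries (log2 difference -0.21, SE 0.17, adjusted p = 0.445, edgeR). In that pair the groups did not overlap, by a narrow margin (17.4% of all pairs 50 kb apart were lower without overlap), and in the pair of the third subcluster they did.

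The pair at 26150001 to 26250000 had 2.41 and 2.54 CPM in the knockdown libraries and 2.47 and 2.83 CPM in the control libraries (log2 difference -0.10, adjusted p = 0.774, edgeR). At 26050001 to 26150000 the levels were 2.03 and 1.49 CPM in the knockdown libraries and 1.955 and 1.93 CPM in the control libraries (log2 difference -0.14, adjusted p = 0.718, edgeR). At 26100001 to 26200000 they were 3.41 and 2.84 CPM in the knockdown libraries and 2.65 and 3.31 CPM in the control libraries (log2 difference 0.06, adjusted p = 0.849, edgeR). These levels are far below those within the bins, and the standard errors of the 5 pairs, 0.157 to 0.22, are wider.

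Each adjoining pair was also set against the contacts within its own 2 bins, a ratio inside each library that needs no scaling. The 5 pairs ran from 3.80% to 6.40% in the knockdown libraries, with 1 value per pair and library, and from 3.44% to 6.63% in the control libraries. In all 5 pairs the groups overlapped. The median over all 19787 such pairs was 7.76% and 7.77% in the knockdown libraries and 6.80% and 6.75% in the control libraries, so the groups did not overlap in the genome-wide median, and every histone value lay below the median of its own library.

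**Figure D5:**
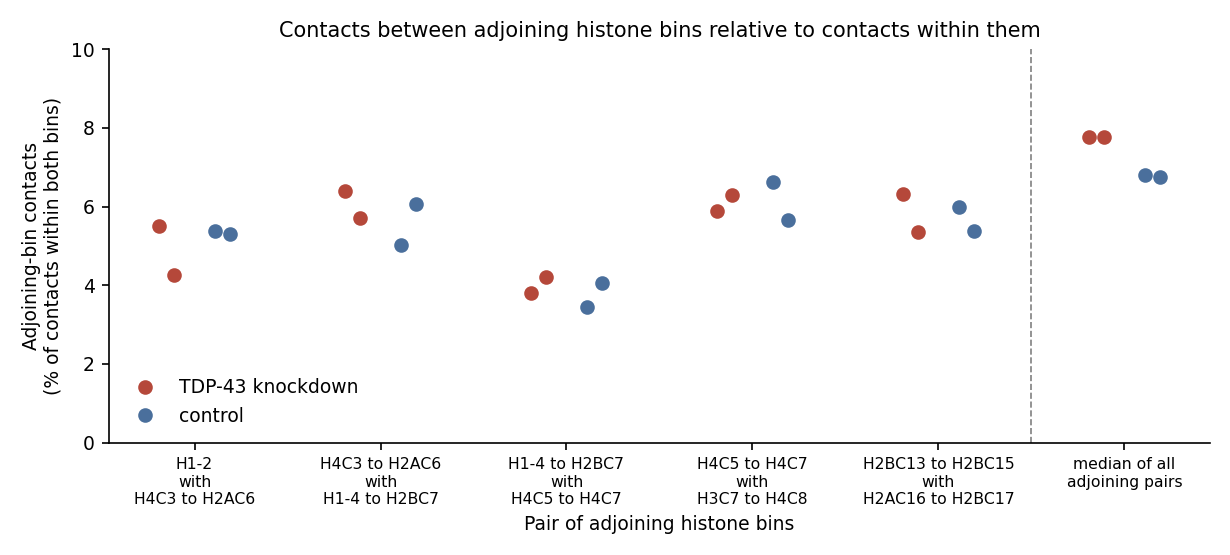
Contacts between adjoining histone bins as a percent of the contacts within both (vertical axis), 1 point per library, for the 5 listed pairs, and, right of the dashed line, the median of all adjoining pairs in each library. All histone points lie below the medians of their groups, and knockdown and control points overlap in each pair.

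Other histone genes were described for comparison, through the bins they lie in. Of 15 further replication-dependent genes on chromosome 1 and elsewhere, 9 lay in lower bins and none in a higher one, in 3 of 5 bins (60.0%). Of all within-bin pairs 14.3% were lower and 7.4% higher. With the trend removed none of the 15 genes lay in a bin past the threshold. H2AC25 and H2BC26 shared a lower bin, at -0.28 (adjusted p = 2.49e-05, edgeR), which was at 0.03 with the trend removed (adjusted p = 0.69). The bin at 149850001 to 149900000 on chromosome 1, with H2AC19, H2AC20, H2AC21, H2BC21, H3C15 and H4C15, had 18.4 and 18.3 CPM in the knockdown libraries and 19.7 and 22.1 CPM in the control libraries (log2 difference -0.19, adjusted p = 0.0473, edgeR). Several genes there have near-identical copies in the next bin, so its reads are uncertain. In 6p22 the promoter windows of H4C11 and H4C12, both in the bin 27800001 to 27850000, are near-identical too. Any effect of this on its counts was not tested. H3-4, the testis H3, lay in a lower bin with 74.2 and 77.2 CPM in the knockdown libraries and 96.6 and 99.7 CPM in the control libraries (log2 difference -0.37, adjusted p = 9.07e-09, edgeR), which was at -0.05 with the trend removed (adjusted p = 0.394). The 14 replication-independent and variant histone genes are expressed outside S phase or replace the canonical forms. Of these, 9 lay in lower bins and none in higher ones, and 10 of their 18 bins were lower (55.6%). With the trend removed 5.13% of all within-bin pairs were lower and 7.87% higher. Of the 14 genes, none then lay in a lower bin and 2 in a higher one. H1-8, the linker histone of the oocyte, had the largest difference of these, -0.49 in one bin (adjusted p = 4.98e-13, edgeR), which was at -0.05 with the trend removed (adjusted p = 0.285), and its other bin was at -0.19 (adjusted p = 0.00641) and, with the trend removed, at 0.12 (adjusted p = 0.0163). H3-3B, which encodes H3.3, changed sign likewise: -0.30 with TMM (adjusted p = 4.66e-06, edgeR) and 0.10 with the trend removed (adjusted p = 0.0269).

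Of 32 other genes of 6p22, none lay in a lower bin and 6 in a higher one. Several share or span bins: 6 of their 38 bins were higher and none lower. Of all within-bin pairs 7.4% were higher and 14.3% lower. CARMIL1, a regulator of actin capping protein, had 3 higher bins with log2 differences of 0.58, 0.52 and 0.51 (adjusted p = 0.000691, 0.000313 and 0.00209, edgeR). SLC17A1 and SLC17A4, members of a family of organic anion and phosphate transporters, shared a bin at 0.56 (adjusted p = 0.0102). A bin of SCGN, a calcium-binding protein, was at 0.41 (adjusted p = 0.0172). Another bin, which SCGN and SLC17A1 share, was at 0.15 (adjusted p = 0.417), and a further bin of SLC17A1 was at 0.56 (adjusted p = 0.0801). With the trend removed these CARMIL1 bins were at 0.52, 0.47 and 0.45 and the bin of SLC17A1 and SLC17A4 at 0.49, all still past the threshold. The SCGN bin that passed by TMM was then at 0.35 and did not pass (adjusted p = 0.0672). The bin of BTN3A2 and BTN2A2, at 0.19 by TMM (adjusted p = 0.0599), passed with the trend removed, at 0.22 (adjusted p = 0.0382, edgeR). By that scaling 7 of the 32 genes lay in a higher bin and 0 in a lower one. Of all within-bin pairs 7.87% were then higher and 5.13% lower. By TMM, 23 of the 53 histone genes lay in 3 lower bins and 30 in bins without a call. With the trend removed 7 of the 53 lay in a lower bin.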

How the data were processed

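Micro-C contacts of 2 TDP-43 knockdown and 2 control libraries of SH-SY5Y cells were used. HiC-Pro and hg38 stand, without versions, in the submitters' processing notes. The deposited table of the authors gives raw counts per pair of 50 kb bins. Per the file headers it also holds log2 fold changes and abundances, an F statistic (a score) and p-values. The library titles end in "merged", which is not explained there. Totals over listed pairs are not full library depth.

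The counts entered edgeR 4.0.16 in R 4.3.3 (with limma 3.58.1): TMM, filterByExpr (0 pairs removed; smallest total 868), glmQLFit and glmQLFTest, with Benjamini-Hochberg adjustment over all pairs and a threshold of 0.05. The fit was tested on simulated counts. Alternatives were DESeq2 1.42.0, loess offsets, TMM by distance class, library size, no filter, a threshold of 0.01, a replicate block, each library left out, contacts within a bin alone, and the authors' table. The loess fit combined with each library left out was added after the data were seen. Deviations of same-numbered libraries correlated at 0.02, so numbers were not taken as pairs. Genes came from RefSeq (GRCh38.p14). Neighbouring histone genes less than 500 kb apart formed a subcluster, and 250 kb gave the same 3. All histone bins and listed pairs are named, with up to 6 passing genes per comparison list, by size of change. The members and lists were chosen with earlier results of these data known. The neighbouring bins at 29 to 33 Mb were not analysed here. H2AC1, H2BC1, LSM10, GON4L and NPAT were named after their values were seen. Tables and figures used Python 3.11.15 with pandas 2.3.3, numpy 2.4.6, matplotlib 3.10.9 and scipy 1.17.1.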

Additional observations from a re-analysis of the deposited data

How the results depend on the processing

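Calls rest on 2 libraries per group, and the scaling moved them most. The count of lower pairs, 3 by TMM and all within bins, was 1 after trend removal and 1 in the authors' deposited table. With 1 library left out it was 2 to 4. After trend removal it was 1 without control replicate 1, 2 without control replicate 2 and 0 without either knockdown library. The replicate block gave 3 (median log2 difference -0.1259) and left every call of the unblocked fit in place, DESeq2 gave 3, a threshold of 0.01 gave 2, library size alone gave 2 (the bin at 27800001 was at -0.0599, adjusted p = 0.505), and the adjoining pairs gave 0 in each setting run. The median difference over the 14 pairs, -0.13, was 0.0076 by library size, which moved the median of all pairs to 0.16, -0.1526 to -0.0606 with 1 library left out, and -0.135 to -0.0568 with 1 library left out after trend removal. The summed log2 ratio, -0.15, was -0.0184 by library size, -0.0635 after trend removal, and -0.1804 to -0.1236 with 1 library left out.

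No difference that changed sign had passed the test by TMM over all 4 libraries, though the bin at 27100001 passed without control replicate 1, with or without trend removal (adjusted p = 0.0165 and 0.0023). The cause was not tested. After trend removal, the bins at 26150001 and 26250001 turned to 0.0262 and 0.0148 and the adjoining pair at 26100001 to -0.0114 (-0.0112 in the authors' deposited table). By library size, the bins at 26000001, 26050001, 26150001 and 26250001 were at 0.0554, 0.0648, 0.0206 and 0.0917, and the adjoining pair at 26150001 at 0.0329. With 1 library left out, ranges that crossed 0 were -0.0299 to 0.1204 (bin 26100001), -0.1112 to 0.0272 (bin 26250001), -0.2898 to 0.0136 (bin 27100001), and, for adjoining pairs, -0.3785 to 0.0663 (26050001), -0.0984 to 0.2327 (26100001) and -0.209 to 0.0017 (26150001). After trend removal with control replicate 1 left out, the bins at 26050001, 26150001 and 26250001 were at 0.0200, 0.0379 and 0.0883, and the adjoining pair at 26100001 at -0.1764. Leaving out control replicate 2 gave 0.0288, 0.0125 and 0.0313 in the bins at 26000001, 26150001 and 27100001. Leaving out knockdown replicate 1 gave -0.1439 in the adjoining pair at 26100001, and leaving out knockdown replicate 2 gave 0.0393, 0.0357, 0.0951 and 0.0878 in the bins at 26000001, 26050001, 26150001 and 26250001. Contacts between subclusters and with other bins had no listed pair, so no alternative gave them a value.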

Other observations

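Genes of histone transcription, histone mRNA processing and histone deposition were read through their bins. Of 26 such genes, 11 lay in lower bins and none in a higher one with TMM, beside 14.3% lower and 7.4% higher of all within-bin pairs. Many span several bins: 15 of their 50 bins were lower (30.0%). Of the genes, 2 lay in lower and 2 in higher bins with the trend removed. By bin, 4 of the 50 were then lower and 2 higher, beside 5.13% lower and 7.87% higher of all within-bin pairs. SLBP, which binds the histone mRNA stem-loop, had 2 lower bins, at log2 differences of -0.48 and -0.40 (adjusted p = 7.24e-13 and 7.65e-10, edgeR). In the first of them the level was 84.0 and 89.0 CPM in the knockdown libraries and 116 and 125 CPM in the control libraries, and the groups did not overlap. With the trend removed both bins remained lower, at -0.12 and -0.12 (adjusted p = 0.0126 and 0.0235). CHAF1A, the large subunit of the chaperone that deposits histones behind the replication fork, was lower by TMM in 2 bins, at -0.41 and -0.39, and with the trend removed at -0.15 and -0.13 (adjusted p = 0.00385 and 0.0183). SYMPK, a scaffold of the cleavage complex, YY1 and E2F1, both transcription factors, had their lowest bins at -0.37, -0.34 and -0.34 (adjusted p = 1.42e-08, 1.45e-07 and 2.96e-07, edgeR), and with the trend removed at -0.09, -0.10 and 0.04, none past the threshold. LSM10, part of the U7 particle that cleaves histone mRNA, was in a bin at -0.11 by TMM (adjusted p = 0.188) and at 0.15 with the trend removed (adjusted p = 0.00384). GON4L was in a bin at 0.11 by TMM (adjusted p = 0.236) and at 0.19 with the trend removed (adjusted p = 0.0252). The bins of NPAT did not pass by TMM, at -0.06 and -0.10.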
